A study of Homo sapiens with 6 samples.

Results

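Argonaute proteins and the enzymes that make microRNAs were followed through 10 genes: DROSHA, DGCR8, XPO5, DICER1, AGO1, AGO2, AGO3, AGO4, TNRC6A and TNRC6B. They were chosen by gene symbol and make up 10 of the 30717 genes in the deposited transcript count table. Each gene's transcript counts were summed, and all 10 had enough counts to be tested. The series measured total RNA from T24 and UMUC3 (UM-UC-3) cells, established human bladder cancer lines, with and without knockdown of circPTK2, a circular RNA made from exons of PTK2. Each line gave 1 control library, whose title ends in si-circPTK2-CON, and 2 knockdown libraries, si-circPTK2-1 and si-circPTK2-2, called knockdown 1 and 2 below by these title numbers. The titles name siRNAs and the design text of the series names sh constructs, so the reagent is not settled here, and no other allele or agent is named. In T24 the title number and the number in the column name are swapped. The labels do not say whether the numbers name different reagents or repeats of 1, nor whether the cells were cultured separately. A p-value here therefore reflects only how these libraries scatter, and that scatter may be technical or include a difference between reagents. The circle and the linear PTK2 transcripts have exons in common, so the knockdown itself was not checked.

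Most animal microRNAs begin as a hairpin within a longer nuclear transcript. DROSHA, an RNase III enzyme, and DGCR8, its RNA-binding partner, form the Microprocessor and cut that hairpin free, and XPO5 (exportin-5) carries it to the cytoplasm. DICER1 trims it to a short duplex, an Argonaute protein keeps 1 strand as a guide, and the GW182 proteins TNRC6A and TNRC6B link the loaded Argonaute to deadenylation and decay of the target mRNA. Of the 4 human Argonautes, AGO2 is the one known for efficient cleavage of a fully paired target.

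The libraries held 65111683 to 72362436 counts, of which 55071837 to 60780176 fell in named genes. Mitochondrially encoded genes took 2.68% of named-gene counts in the T24 control, 3.36% and 3.50% in T24 knockdown 1 and 2, 4.62% in the UMUC3 control, and 4.26% and 4.62% in UMUC3 knockdown 1 and 2. This share was thus higher in T24 knockdown than in T24 control and higher in UMUC3 than in T24, and its part in the results below was not tested. The summed level of 14 urothelial and epithelial markers was 3280 to 3464 CPM (TMM-scaled CPM, the unit of all levels here unless TPM is named) in T24 and 179 to 199 CPM in UMUC3. KRT8 and KRT18 exceeded 10 CPM in every library, whereas CDH1, TP63, UPK1A, UPK2, KRT20 and KRT5 were under 1 CPM in every library. The 5 immune markers with a row summed to 7.56 to 9.34 CPM in T24 and 29.7 to 54.8 CPM in UMUC3, with PTPRC, LYZ and CSF1R under 1 CPM throughout. Nearly all of the UMUC3 sum was CD68, at 28.2 to 54.2 CPM. CD14 went the other way, at 2.37 to 5.07 CPM in T24 and 0.20 to 0.90 CPM in UMUC3. The 6 stromal and endothelial markers with a row summed to 72.7 to 81.6 CPM in T24 and 13.4 to 15.7 CPM in UMUC3. Most of the T24 sum was CDH5, at 64.5 to 75.5 CPM in T24 and 0 CPM in UMUC3. CDH5 alone of this list passed as higher in T24, and PDGFRB (log2 difference -2.04) and COL1A1 (-0.78) passed as lower.

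3 loci carry sequence that helps in reading the counts, and the stretches below are from GENCODE release 29 transcripts and RefSeq promoter windows on GRCh38. The first pair shows where 2 AGO1 transcripts part, because their counts differ between libraries below. AGO1-201 codes for the full protein (2571 coding bases), and AGO1-203 is annotated as a target of nonsense-mediated decay (398 coding bases). Both transcripts leave the same exon, which ends at position 35893278 of chromosome 1. AGO1-201 goes on at 35893674 and AGO1-203 at 35893592, 82 bases earlier. The last 12 bases of the shared exon are in lower case and the first 18 bases of the next exon in capitals, 5′ to 3′.
AGO1-201: ggcatccatgagGTACACCCCTGTGGGCCG
AGO1-203: ggcatccatgagGCCAGGGCTCCTCCGTGC
The next stretches lie between the starts of 2 members and the starts of their opposite-strand neighbours, and they show how close those starts are. DROSHA and C5orf22 start on either side of chr5:31532197-31532265, 69 bases given on the plus strand with a CCAAT box in capitals.
DROSHA to C5orf22: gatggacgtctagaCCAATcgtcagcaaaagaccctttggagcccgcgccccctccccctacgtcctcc
XPO5 and POLH start on either side of chr6:43576076-43576149, 74 bases on the plus strand with overlapping GC boxes (GGGCGG) in capitals.
XPO5 to POLH: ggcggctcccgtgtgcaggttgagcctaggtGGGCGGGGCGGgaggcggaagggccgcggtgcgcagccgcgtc
RefSeq promoter windows matched 9 of the 10 genes, all but AGO2. On either strand, CCAAT lay in the windows of 6 of these 9 genes and of 35.7% of all 27305 windows, and GGGCGG in 8 of 9 and 44.6%. CCGGAAG, the ETS core, lay in 3 of 9 and 10.7%, and CACGTG, the E-box, in 0 of 9 and 7.43%. A match is only a match of letters in a window.

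The genes were expressed in every library, at levels that differed by gene and by line. Per transcript length, in TPM (counts divided by transcript length and scaled to a common total), AGO2 ranged from 29.6 to 107.0 over the 6 libraries. AGO1 ranged from 4.41 to 11.4 TPM, AGO3 from 9.22 to 12.6 TPM and AGO4 from 4.69 to 16.8 TPM, so AGO2 was the highest Argonaute in every library on this scale. TNRC6A (34.9 to 113.9 TPM) stood above TNRC6B (1.80 to 10.6 TPM) in every library. DICER1 lay at 15.2 to 78.8 TPM, DROSHA at 20.7 to 39.1 TPM, DGCR8 at 11.6 to 18.1 TPM and XPO5 at 46.1 to 83.7 TPM. The levels below are in CPM, which compares a gene with itself between libraries.

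**Figure D1:**
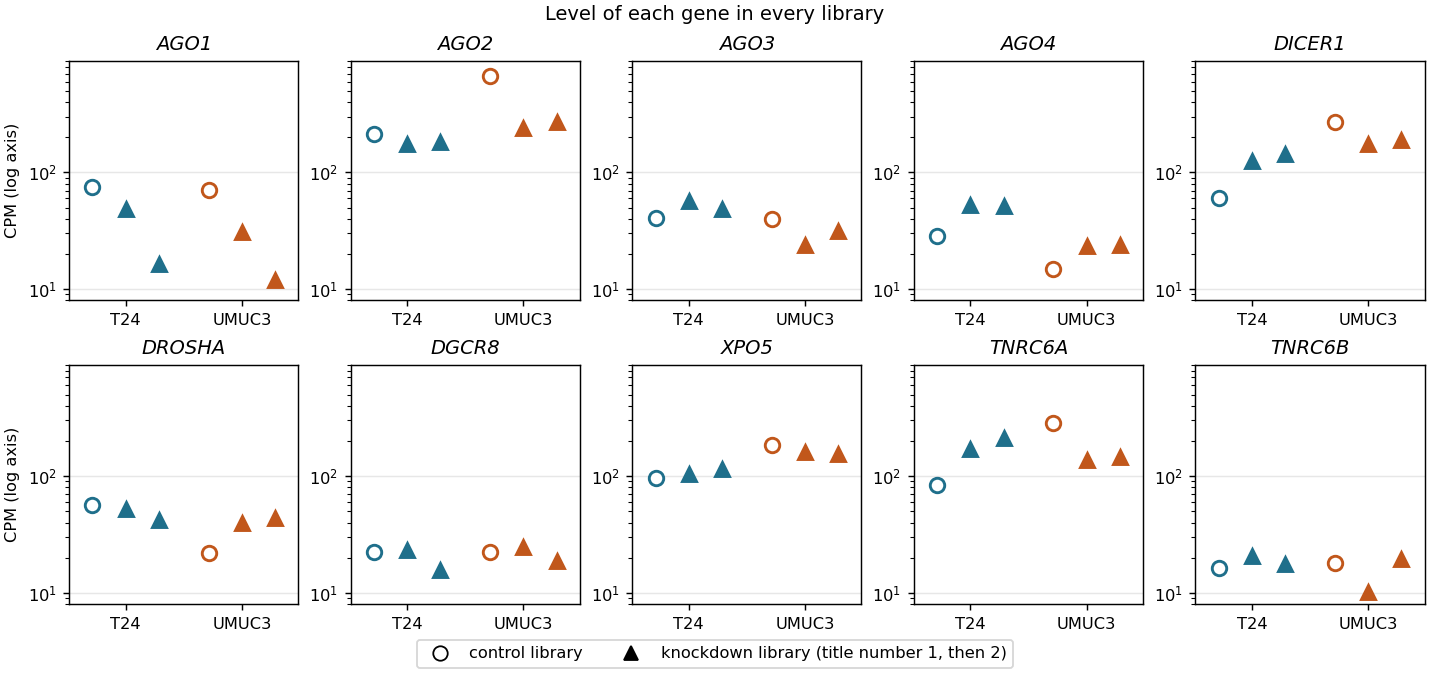
Level of each of the 10 genes in CPM (logarithmic axis) in every library, with open circles for the control library and triangles for knockdown 1 and then 2 of each line. AGO2 in UMUC3 goes from 667 CPM in the control to 242 and 269 CPM, and TNRC6A lies above its control in T24 and below it in UMUC3.

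Knockdown left 1 of the 10 genes past the threshold in 1 line, AGO2 in UMUC3. In both lines together, 0 of the 10 passed edgeR's quasi-likelihood test at an adjusted p under 0.05, against 0.0145% of all 20721 genes tested. In T24 0 of 10 passed, against 0.135% of all genes, and in UMUC3 1 of 10 passed, against 0.647%. The difference of the knockdown effect between the lines passed for 0 of 10, against 0.0579%. At an unadjusted p under 0.05 the counts were 3 of 10 in both lines together (11.6% of all genes), 3 of 10 in T24 (12.5%), 5 of 10 in UMUC3 (16.8%) and 4 of 10 for the difference (13.5%). By the DESeq2 Wald test 1 gene passed in both lines together (AGO4), 3 in T24 (AGO4, DICER1, TNRC6A), 4 in UMUC3 (AGO2, AGO4, DROSHA, TNRC6A) and 3 for the difference (AGO2, DICER1, TNRC6A). Of all genes, DESeq2 called 4.73% in both lines together, 4.73% in T24, 8.28% in UMUC3 and 5.41% for the difference, a higher background than that of the edgeR counts. The edgeR fit borrows the spread of the knockdown pairs for each control, which has no replicate.

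The median log2 fold change of the 10 genes was 0.20 in T24 and -0.40 in UMUC3, and over all genes tested both medians were 0. Both knockdown libraries lay above the control for 6 genes in T24 and for 2 in UMUC3, and both lay below it for 3 and 6. Both knockdown libraries thus lay on 1 side of the control in 9 of the 10 genes in T24, against 72.0% of all genes (7193 above and 7729 below), and in 8 of 10 in UMUC3, against 72.8% (7384 above and 7695 below). In 5 of the 10 genes the knockdown libraries lay on opposite sides of their control in the 2 lines, against 24.4% of all genes. AGO3, DICER1, XPO5 and TNRC6A were above the control in T24 and below it in UMUC3, and DROSHA was the reverse. AGO1 and AGO2 were below and AGO4 was above in both lines.

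**Figure D2:**
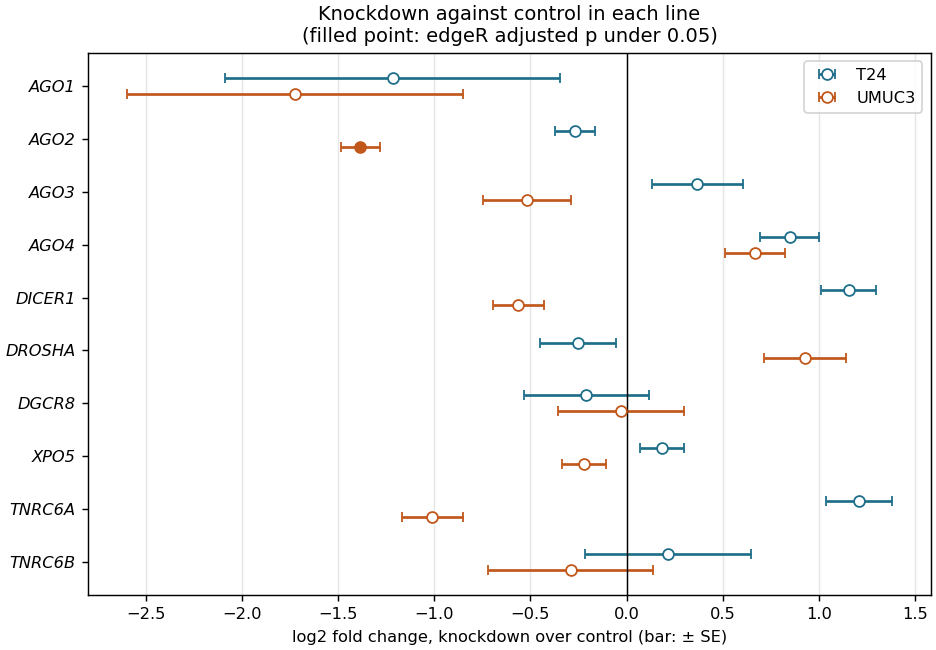
Log2 fold change of knockdown over control with its standard error for each gene, in T24 and in UMUC3 (2 knockdown libraries against 1 control each). The filled point, AGO2 in UMUC3 at -1.38, is the value past the threshold, and DICER1 and TNRC6A lie on opposite sides of 0 in the lines.

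The Microprocessor genes did not pass in any knockdown comparison by edgeR. DROSHA (ENSG00000113360, chromosome 5, 31400497 to 31532196, minus strand), the nuclease of the complex, measured 56.5 CPM in the T24 control, 52.7 CPM in T24 knockdown 1 and 42.2 CPM in T24 knockdown 2. In UMUC3 it measured 21.8 CPM (control), 39.4 CPM (knockdown 1) and 43.6 CPM (knockdown 2). The UMUC3 control was the lowest of the 6 libraries and the T24 control the highest, and the knockdown libraries of the lines overlapped. Its log2 fold change was -0.25 ± 0.20 (SE) in T24 (edgeR adjusted p = 0.662) and 0.93 ± 0.21 in UMUC3 (adjusted p = 0.164). The difference between these effects was 1.18 ± 0.29 (adjusted p = 0.253).

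DROSHA counts were spread over 19 transcripts. DROSHA-201 and DROSHA-212 share 1 coding sequence of 4122 bases and together took 46.1% to 70.3% of DROSHA counts. DROSHA-220, with 4011 coding bases, had 3 counts in the UMUC3 control and 416 and 844 counts in UMUC3 knockdown 1 and 2. In T24 the same transcript had 492, 284 and 398 counts. DROSHA-220 was thus nearly missing from the UMUC3 control, where the gene's total was lowest. C5orf22, whose start lies across the 69-base stretch printed above, was measured at 22.3, 17.5 and 19.1 CPM in T24 control, knockdown 1 and 2, and at 35.7, 20.2 and 21.9 CPM in UMUC3. In UMUC3 the knockdown libraries lay below the control for C5orf22 (log2 -0.76 ± 0.17, edgeR adjusted p = 0.164) and above it for DROSHA.

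DGCR8 (ENSG00000128191, chromosome 22, 20080232 to 20111877, plus strand), which recognises the hairpin, was at 22.5, 23.2 and 15.8 CPM in T24 control, knockdown 1 and 2, and at 22.2, 24.7 and 18.8 CPM in UMUC3. In each line knockdown 1 was above the control, and knockdown 2 was the lowest library. Fold changes on the log2 scale were -0.21 ± 0.33 in T24 (edgeR adjusted p = 0.839) and -0.03 ± 0.33 in UMUC3 (adjusted p = 1). Most DGCR8 counts did not fall on the coding transcript. The 6 retained-intron transcripts held 55.7% to 89.0% of the counts, and DGCR8-201, the transcript with the 2319-base coding sequence, held 10.96% to 44.3%. DGCR8-201 alone had 147, 151 and 417 counts in T24 control, knockdown 1 and 2, and 429, 356 and 204 counts in UMUC3. Its highest T24 library was knockdown 2, where the gene's total was lowest. DGCR8 overlaps TRMT2A on the other strand, and without knowledge of strand their reads in the overlap cannot be told apart. The same holds where DICER1 overlaps DICER1-AS1 and XPO5 overlaps POLR1C. It also holds for AGO1, AGO2, AGO3, DROSHA, TNRC6A and TNRC6B, which overlap annotated genes on the other strand that are not protein-coding. AGO4 alone overlaps no annotated gene.

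DGCR8 is itself a host of microRNA hairpins, which are known as substrates of the Microprocessor and are shown for that reason. RefSeq places hsa-miR-3618 at chr22:20085797-20085818 and hsa-miR-1306-3p at chr22:20086112-20086129, both on the plus strand within the gene. The seed, bases 2 to 8, is in capitals.
hsa-miR-3618: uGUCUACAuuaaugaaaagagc
hsa-miR-1306-3p: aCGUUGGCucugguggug
Mature microRNAs were not measured in these libraries.

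XPO5 (ENSG00000124571, chromosome 6, 43522330 to 43576075, minus strand), the exporter, differed least from the control, in each line, among the genes with both knockdown libraries on 1 side. In T24 the control measured 96.5 CPM against 104.2 and 115.1 CPM with knockdown 1 and 2. In UMUC3 the control measured 184.6 CPM against 161.5 and 155.0 CPM. The T24 knockdown libraries lay above their control and the UMUC3 knockdown libraries below theirs. On the log2 scale XPO5 differed from the control by 0.18 ± 0.12 in T24 (edgeR adjusted p = 0.580) and -0.22 ± 0.11 in UMUC3 (adjusted p = 0.425). XPO5-201, with 3612 coding bases, held 71.6% to 76.8% of the counts, and most of the rest lay on the retained-intron transcript XPO5-207. POLH, a DNA polymerase gene that starts across the 74-base stretch printed above, was at 46.6, 50.4 and 41.2 CPM in T24 and 34.3, 27.7 and 29.8 CPM in UMUC3 (control, knockdown 1, knockdown 2).

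DICER1 (ENSG00000100697, chromosome 14, 95086228 to 95158010, minus strand), the cytoplasmic RNase III, measured 60.2 CPM in the T24 control, 124.7 CPM in T24 knockdown 1 and 143.2 CPM in T24 knockdown 2. In UMUC3 the order was the reverse, with 269.5 CPM in the control against 173.7 and 190.8 CPM in knockdown 1 and 2. The controls were thus the lowest and the highest of the 6 libraries, and the knockdown libraries lay between them. The log2 fold change was 1.15 ± 0.14 in T24 (edgeR adjusted p = 0.109) and -0.56 ± 0.13 in UMUC3 (adjusted p = 0.170), neither past the threshold. The difference between the lines was -1.72 ± 0.19 (unadjusted p = 0.000702, edgeR adjusted p = 0.113).

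The transcripts that carried DICER1 counts differed between libraries. The 5766-base coding sequence is shared by 4 transcripts, DICER1-201 to DICER1-204, which held 76.9% to 98.2% of the counts. Within that group, DICER1-201 held 83.7%, 50.02% and 15.4% of the counts in T24 control, knockdown 1 and 2, and 6.93%, 58.1% and 7.04% in UMUC3. DICER1-202 held 14.5%, 13.6% and 79.4% in T24 and 88.6%, 20.5% and 78.9% in UMUC3. The leading transcript thus differed between libraries of 1 line, and both leading transcripts carry that same coding sequence. DICER1-214, a shorter coding transcript of 2460 coding bases, had 0, 1539 and 0 counts in T24 and 0, 1836 and 1308 counts in UMUC3. Counting only the leading transcript of each gene gave a DICER1 log2 fold change of 2.90 in T24 and -1.37 in UMUC3, so the size of the value rests on how the transcripts are summed.

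**Figure D3:**
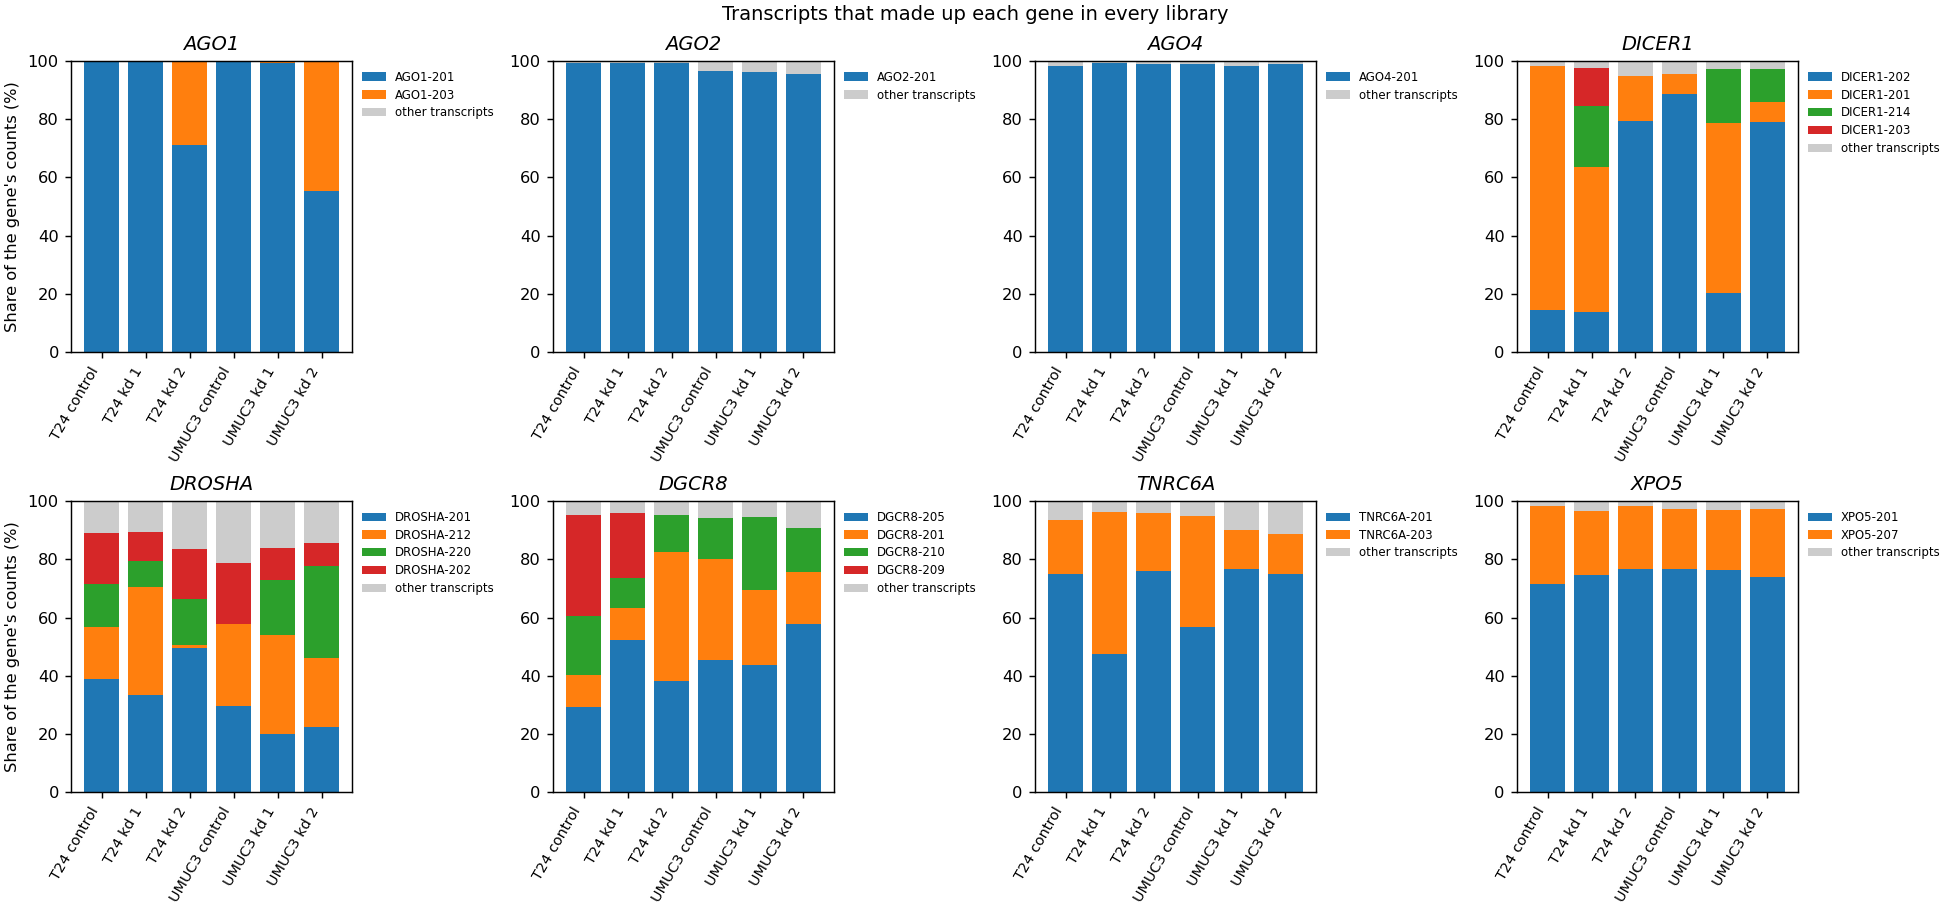
Share of each gene's counts, in percent, that fell on each transcript with at least 10% of the counts in some library, for 8 of the genes in the 6 libraries (kd, knockdown). AGO2 and AGO4 rest on 1 transcript throughout, whereas AGO1-203 reaches 28.96% and 44.5% in knockdown 2 of T24 and UMUC3 and the leading DICER1 transcript differs between libraries.

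AGO2 (ENSG00000123908, chromosome 8, 140520156 to 140635619, minus strand), the slicing Argonaute, fell in UMUC3 knockdown. The UMUC3 control had 667 CPM, and UMUC3 knockdown 1 and 2 had 242 and 269 CPM, a mean of 255.6 ± 19.3 CPM (SD, n = 2) and 0.383 of the control. The T24 control had 215.0 CPM, and T24 knockdown 1 and 2 had 173.6 and 183.6 CPM (178.6 ± 7.1 CPM, n = 2). The UMUC3 control stood apart from the other 5 libraries, and in each line both knockdown libraries lay below the control. The log2 fold change was -1.38 ± 0.10 in UMUC3 (edgeR adjusted p = 0.0432) and -0.27 ± 0.11 in T24 (adjusted p = 0.425). The difference between the lines was -1.12 ± 0.15 and did not pass (edgeR adjusted p = 0.140). In both lines together the value was -0.86 ± 0.25 (edgeR adjusted p = 0.314), without the T24 control it was -1.38 (adjusted p = 0.0422), and without the UMUC3 control it was -0.27 (adjusted p = 0.436). In these bulk libraries, fewer cells with the RNA and less RNA per cell cannot be told apart.

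The AGO2 call in UMUC3 was close to the threshold and passed in 5 of the 15 alternatives run. With a block for the title or the column-name numbers it did not pass (edgeR adjusted p up to 0.259). It did not pass with edgeR's older quasi-likelihood estimate (adjusted p = 0.0607), with limma voom (adjusted p = 0.0764), on leading transcripts alone (adjusted p = 0.0889), on UMUC3 libraries alone (adjusted p = 0.167) or without any 1 of the 4 knockdown libraries (adjusted p = 0.177 to 0.222), while the log2 fold change stayed between -1.46 and -1.31 in all 15 alternatives run.

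AGO2 counts came almost wholly from AGO2-201, the transcript with the 2577-base coding sequence, at 99.2% to 99.4% in T24 and 95.5% to 96.6% in UMUC3. AGO2 lies 22281 bases from PTK2, the host gene of the targeted circle, and 3019 bases from CHRAC1 on its other side. PTK2 was at 45.9, 67.2 and 63.1 CPM in T24 control, knockdown 1 and 2, and at 123.8, 161.3 and 393.5 CPM in UMUC3. CHRAC1, a chromatin accessibility complex subunit, was at 55.8, 39.3 and 41.5 CPM in T24 and 89.0, 105.4 and 118.9 CPM in UMUC3. In UMUC3, where AGO2 fell, both neighbours were above the control in each knockdown library, and neither passed (edgeR adjusted p = 0.440 for PTK2 and 0.348 for CHRAC1). The genes most like AGO2 over the 6 libraries were GYG1, IMPAD1 and USP34, each with a Pearson r of log2 CPM of 0.995, among 11138 genes with a mean of at least 5 CPM. Each was highest in the UMUC3 control, as AGO2 was, so r leans on that 1 library. GYG1 was at 91.6 CPM there and at 62.1 to 69.2 CPM elsewhere. IMPAD1 was at 254.0, 218.4 and 219.3 CPM in T24 and 430.4, 253.3 and 274.2 CPM in UMUC3, so its range between libraries was smaller than that of AGO2.

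AGO4, AGO1 and AGO3 lie side by side on the plus strand of chromosome 1, with 11918 bases between AGO4 and AGO1 and 190 bases between AGO1 and AGO3. After knockdown these neighbours did not lie on the same side of the control. AGO4 (ENSG00000134698, 35808172 to 35857890) was higher in each knockdown library than in the control of its line. Its T24 control had 28.8 CPM, against 52.3 and 51.4 CPM in knockdown 1 and 2 (51.9 ± 0.6 CPM, n = 2). Its UMUC3 control had 14.8 CPM, against 23.2 and 23.9 CPM (23.5 ± 0.4 CPM, n = 2). In each line the gap to the control exceeded the gap between the knockdown libraries, which was under 1 CPM. AGO4 gave a log2 fold change of 0.76 ± 0.15 in both lines together (unadjusted p = 0.00261, edgeR adjusted p = 0.193), 0.85 ± 0.15 in T24 (adjusted p = 0.171) and 0.67 ± 0.16 in UMUC3 (adjusted p = 0.170). None of these passed by edgeR over all genes, and the DESeq2 Wald test called each of them. AGO4-201, with 2583 coding bases, held 98.4% to 99.5% of the counts.

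AGO1 (ENSG00000092847, 35869808 to 35930528) was lower in each knockdown library than in its control, and lowest in knockdown 2 of both lines. T24 control, knockdown 1 and knockdown 2 had 75.6, 48.8 and 16.3 CPM. The same UMUC3 libraries had 71.3, 31.2 and 12.04 CPM. The controls of the lines were alike, and the paired knockdown libraries were further apart than for any other of the 10 genes on the log2 scale. AGO1 gave a log2 fold change of -1.48 ± 0.54 in both lines together (unadjusted p = 0.0376, edgeR adjusted p = 0.400), -1.22 ± 0.87 in T24 (adjusted p = 0.633) and -1.73 ± 0.87 in UMUC3 (adjusted p = 0.431).

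The AGO1 transcripts separated knockdown 2 from the other libraries. AGO1-201 had 4474, 2896 and 687 counts in T24 control, knockdown 1 and 2, and 3977, 1733 and 407 counts in UMUC3. AGO1-203, the decay transcript whose junction is printed above, had 4, 4 and 280 counts in T24 and 5, 14 and 326 counts in UMUC3. It therefore made up 28.96% and 44.5% of AGO1 counts in knockdown 2 of T24 and UMUC3, and under 1% in the other 4 libraries. Per length, AGO1 was at 11.4, 7.22 and 5.06 TPM in T24 and 9.96, 4.41 and 4.67 TPM in UMUC3, so in UMUC3 knockdown 2 was not below knockdown 1 on that scale. AGO1-203 is 2836 bases long and AGO1-201 is 13708 bases long.

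AGO3 (ENSG00000126070, 35930718 to 36072500) was at 40.9, 56.8 and 48.6 CPM in T24 control, knockdown 1 and 2, and at 39.6, 23.9 and 31.4 CPM in UMUC3. The controls were within 2 CPM of each other, with the T24 knockdown libraries above them and the UMUC3 knockdown libraries below. AGO3 gave a log2 fold change of 0.37 ± 0.24 in T24 (edgeR adjusted p = 0.588) and -0.52 ± 0.23 in UMUC3 (adjusted p = 0.372). Per length, T24 gave 12.3, 9.47 and 12.6 TPM, so knockdown 1 was below and knockdown 2 above the T24 control on that scale. AGO3-203, with 2580 coding bases, held 70.7% to 95.7% of the counts, and AGO3-207, a decay transcript, held 1.598% to 13.5%.

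TNRC6A (ENSG00000090905, chromosome 16, 24610209 to 24827632, plus strand), a GW182 protein, measured 83.1 CPM in the T24 control, 171.0 CPM in T24 knockdown 1 and 212.9 CPM in T24 knockdown 2. UMUC3 gave 284.4 CPM in the control against 137.0 and 145.4 CPM in knockdown 1 and 2. As for DICER1, the controls were the lowest and the highest of the 6 libraries. TNRC6A gave a log2 fold change of 1.21 ± 0.17 in T24 (edgeR adjusted p = 0.122) and -1.01 ± 0.16 in UMUC3 (adjusted p = 0.0979). The difference between the lines, -2.22 ± 0.24, was the largest of the 10 genes and did not pass (unadjusted p = 0.000543, edgeR adjusted p = 0.113).

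TNRC6A counts were split mainly between TNRC6A-201, with 5739 coding bases, and TNRC6A-203, with 2718. TNRC6A-201 alone had 3708, 4814 and 9603 counts in T24 control, knockdown 1 and 2, and 9004, 5884 and 6628 counts in UMUC3. TNRC6A-203 had 911, 4966 and 2538 counts in T24 and 6059, 1029 and 1223 counts in UMUC3. In both lines the 2 transcripts lay on the same side of the control in each knockdown library. As a ratio to the control, the shorter one differed by more in each.

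TNRC6B (ENSG00000100354, chromosome 22, 40044817 to 40335808, plus strand) codes for the other GW182 protein among the 10 genes. Its RNA was at 16.4, 20.6 and 17.6 CPM in T24 control, knockdown 1 and 2, and at 18.1, 10.2 and 19.3 CPM in UMUC3. The lines overlapped, and UMUC3 knockdown 1 was the lowest library. TNRC6B gave a log2 fold change of 0.22 ± 0.43 in T24 (edgeR adjusted p = 0.885) and -0.29 ± 0.43 in UMUC3 (adjusted p = 0.795). TNRC6B-202, with 5169 coding bases, held 67.5% to 89.3% of the counts.

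The composition shift separated the 10 genes. It is the largest part of a gene's counts found on another transcript when 2 libraries of the same line are set side by side. It was 0.003 in T24 and 0.011 in UMUC3 for AGO2, 0.011 and 0.008 for AGO4, and 0.056 and 0.036 for XPO5. It reached 0.70 and 0.71 for DICER1, 0.29 and 0.44 for AGO1, 0.32 and 0.25 for TNRC6A, 0.37 and 0.35 for DROSHA and 0.43 and 0.18 for DGCR8. With AGO3 and TNRC6B, 5 of the 10 genes stayed under 0.2 in both lines, against 31.8% of the 14437 tested genes with at least 2 transcripts. Among those stable genes alone, a set formed after the data had been seen, AGO2 in UMUC3 (edgeR adjusted p = 0.00906) and AGO4 in both T24 and UMUC3 passed, and so did the difference between the lines for AGO2. Of all 4593 stable genes, 4.03% passed in T24, 12.4% in UMUC3 and 3.35% for the difference.

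T24 and UMUC3 differed in 3 of the 10 genes, against 40.2% of all genes tested. AGO4 was higher in T24 by 1.08 ± 0.14 on the log2 scale (3 libraries a line, edgeR adjusted p = 0.00247), at 28.8 to 52.3 CPM against 14.8 to 23.9 CPM. XPO5 was lower in T24 by 0.66 ± 0.13 (log2 difference -0.66, adjusted p = 0.0109), at 96.5 to 115.1 CPM against 155.0 to 184.6 CPM. AGO2 was lower in T24 (log2 difference -0.89 ± 0.24, adjusted p = 0.0344), at 173.6 to 215.0 CPM against 241.9 to 667 CPM. The libraries of the lines did not overlap for these 3 genes, nor for AGO3 and DICER1, which makes 5 of 10 against 52.3% of all genes. AGO4 and XPO5 passed in all 18 alternatives run. AGO2 did not pass on leading transcripts alone (adjusted p = 0.0850) or without T24 knockdown 1, T24 knockdown 2 or UMUC3 knockdown 2 (adjusted p = 0.0699, 0.0527 and 0.0749). Without the T24 control the AGO2 difference was -0.51 and without the UMUC3 control it was -0.52, and both passed.

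The lines were also set side by side within each condition. In the control libraries alone, 6 of the 10 passed in the 4-group fit: AGO4 and DROSHA higher in T24, and AGO2, DICER1, XPO5 and TNRC6A lower, against 24.4% of all genes tested. The T24 control stood at 0.223 of the UMUC3 control for DICER1, 0.292 for TNRC6A, 0.322 for AGO2 and 0.523 for XPO5, at 1.94 times for AGO4 and at 2.59 times for DROSHA. In the knockdown libraries alone 5 passed, AGO2, AGO3, AGO4, DICER1 and XPO5, against 34.6% of all genes. For TNRC6A the log2 difference was -1.78 in the controls and 0.44 in the knockdown libraries. The difference in DICER1 was 0.0865 by edgeR adjusted p over all 6 libraries (log2 -1.0 ± 0.38).

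**Figure D4:**
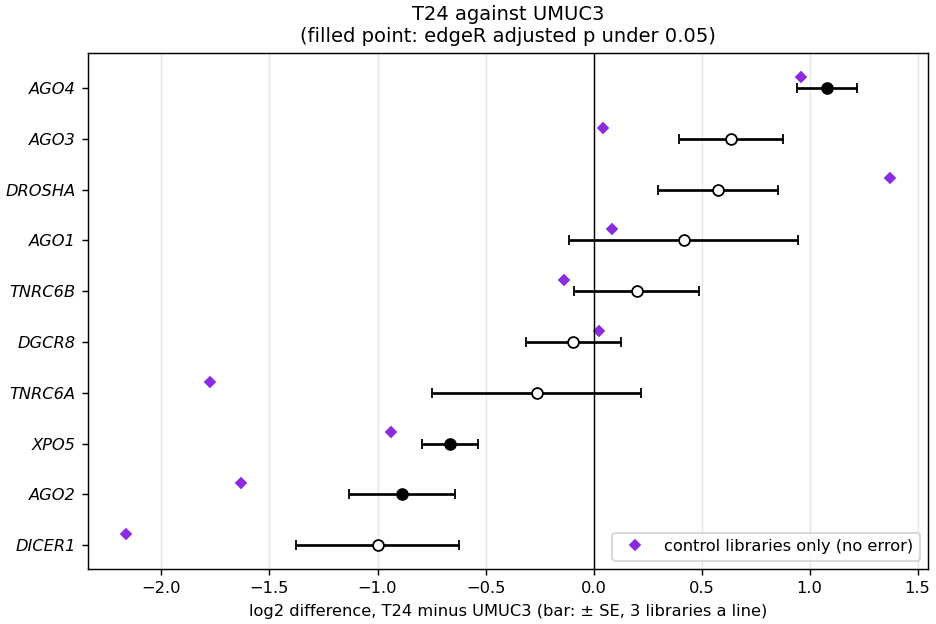
Log2 difference of T24 minus UMUC3 over 3 libraries a line with its standard error (circles, filled where the edgeR adjusted p is under 0.05) and between the control libraries alone (diamonds). AGO4, XPO5 and AGO2 are filled, and the control libraries alone put TNRC6A, DICER1, AGO2, DROSHA and XPO5 further from 0.

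The partners of these proteins did not pass in any knockdown comparison. Of the 12 Microprocessor partners tested, 0 passed in both lines together, in T24, in UMUC3 or in the difference. DDX17, a helicase, was among those with the smallest p in both lines together (log2 0.26, edgeR adjusted p = 0.353). Between the lines, 40.2% of all genes passed in either direction. DDX17 was higher in T24 (log2 difference 0.41), and SRRT (-1.47), SAFB2 (-0.56), KHSRP (-0.50) and ERH (-0.46) were lower. Among 5 nuclear export genes, RCC1 (log2 -0.40, edgeR adjusted p = 0.501) and RAN (-0.04, adjusted p = 0.933) had the smallest p in both lines together. XPO1 (-0.37) and RAN, the GTPase that XPO5 needs to bind its cargo (-0.60), were lower in T24 than in UMUC3. Of the 5 export genes, 2 were thus lower and 0 higher, against that 40.2% of all genes.

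Dicer partners and RNA editing enzymes made a list of 4. ADARB1 (log2 -0.54, edgeR adjusted p = 0.496) and PRKRA (-0.29, adjusted p = 0.546) came first by p in both lines together. TARBP2, the double-stranded RNA-binding partner of DICER1, was at 17.9 to 23.6 CPM in T24 and 48.6 to 53.5 CPM in UMUC3 (log2 difference -1.25). The editing enzyme ADARB1 was higher in T24 (1.51). That makes 1 higher and 1 lower of 4, against 40.2% of all genes in either direction. Of 17 tested genes for Argonaute loading and RISC, 0 passed after knockdown, with LIMD1 (log2 -0.44, edgeR adjusted p = 0.383) and AJUBA (-0.72, adjusted p = 0.424) first by p. Between the lines, 5 of the 17 were lower in T24 and 0 were higher, against 40.2% of all genes in either direction. The 5 were the chaperones HSP90AB1 (-0.93) and HSP90AA1 (-0.29), their co-chaperone FKBP4 (-1.83), IPO8 (-0.60) and FXR1 (-0.53).

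GW182 proteins act through deadenylases and decapping factors, of which 18 were tested. CNOT1, the scaffold of the CCR4-NOT complex (log2 -0.41, edgeR adjusted p = 0.451), and PAN2 (0.68, adjusted p = 0.473) came first by p, and 0 of 18 passed after knockdown. CNOT6L (2.83) and the helicase DDX6 (0.86) were higher in T24, and CNOT3 (-1.26) and CNOT7 (-0.77) were lower. That makes 2 higher and 2 lower of 18, against 40.2% of all genes in either direction. CNOT6L stood at 42.0, 33.7 and 4.83 CPM in T24 control, knockdown 1 and 2, and at 2.997 to 4.62 CPM in UMUC3, so T24 knockdown 2 was close to UMUC3. Of 10 tested genes that modify or degrade microRNAs, USB1 (log2 -0.21, edgeR adjusted p = 0.619) and ZC3H12A (1.57, adjusted p = 0.677) came first and 0 passed after knockdown. USB1 (0.54) was higher in T24, and ZCCHC11, also known as TUT4 (-1.28), and ZSWIM8 (-1.16) were lower. That makes 1 higher and 2 lower of 10, against the same 40.2% of all genes.

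Transcripts that host microRNAs, the long RNAs from which the hairpins are cut, differed between the lines in 8 of the 16 tested, against the 40.2% of all genes given above. Of these, 7 were higher and 1 was lower in T24 than in UMUC3, where all genes gave 4404 higher and 3925 lower. Over all 16 tested host transcripts the median log2 difference was 1.10, against 0.02 over all genes. MIR100HG was at 20.4 to 25.8 CPM in T24 and 2.18 to 3.30 CPM in UMUC3 (log2 difference 3.01), and MIRLET7BHG at 9.29 to 15.5 CPM against 4.24 to 5.63 CPM (1.39). MIR503HG was at 1.68 to 1.95 CPM in T24 and had no count in the 3 UMUC3 libraries, which makes it at least 107.0-fold higher in T24 against a floor of 3 counts over those libraries. MIR155HG (6.32), MIR34AHG (5.88), MIR31HG (2.26) and MIR193BHG (1.48) were also higher, and MIR17HG was lower (-1.38), all at under 5 CPM. In UMUC3, MIR155HG was at 0 to 0.066 CPM and MIR34AHG at 0 to 0.071 CPM, so the size of their differences rests on few counts. Host levels are sums over annotated transcripts and say neither how much hairpin precursor nor how much mature microRNA was present.

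After knockdown 0 of the 16 host transcripts passed. MIR17HG (log2 1.11, edgeR adjusted p = 0.284) and MIR181A1HG, at 0 to 0.263 CPM, had the smallest p in both lines together. MIR22HG stood at 11.7, 29.8 and 23.7 CPM in T24 control, knockdown 1 and 2, and at 35.8, 15.6 and 18.9 CPM in UMUC3. Its knockdown libraries lay above the control in T24 and below it in UMUC3, as for DICER1 and TNRC6A. MIR210HG was at 20.8, 11.7 and 17.7 CPM in T24 and 3.49, 8.90 and 9.18 CPM in UMUC3, the reverse pattern, which was also that of DROSHA. MIR222HG was at 11.7, 10.5 and 11.2 CPM in T24 and 12.7, 11.99 and 13.4 CPM in UMUC3, and the difference between the lines did not pass (log2 -0.19, edgeR adjusted p = 0.428). MIR4435-2HG (14.1 to 22.8 CPM) overlapped between the lines.

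**Figure D5:**
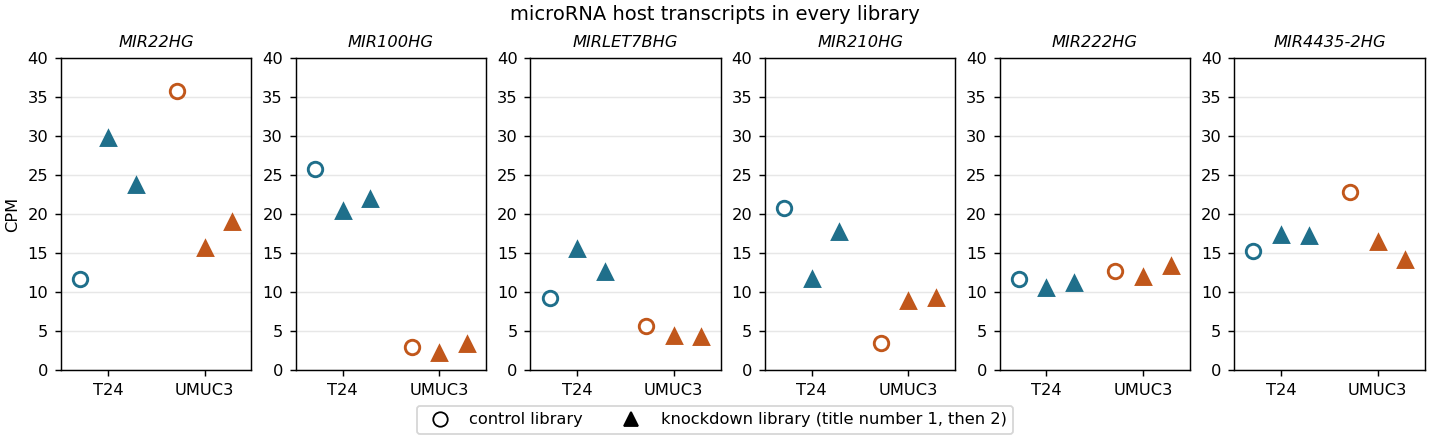
Level in CPM of the 6 microRNA host transcripts with a mean of at least 5 CPM in every library, with open circles for the control and triangles for knockdown 1 and then 2 of each line. MIR100HG separates the lines, and MIR22HG lies above its control in T24 and below it in UMUC3.

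The mature microRNAs that RefSeq places within these host transcripts are shown to tell which guides the Argonautes could receive from them, with the seed in capitals. MIR100HG and MIRLET7BHG, both higher in T24, hold let-7 members with a common seed, which 11 mature microRNAs of the RefSeq table carry.
hsa-let-7a-5p (MIR100HG, MIRLET7BHG): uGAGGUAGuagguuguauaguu
hsa-let-7b-5p (MIRLET7BHG): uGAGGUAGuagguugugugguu
hsa-miR-100-5p (MIR100HG): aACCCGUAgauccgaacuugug
hsa-miR-125b-5p (MIR100HG): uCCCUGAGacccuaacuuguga
MIR22HG and MIR210HG, whose knockdown libraries lay on opposite sides of the control in the lines, hold a single hairpin each.
hsa-miR-22-3p (MIR22HG): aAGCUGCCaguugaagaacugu
hsa-miR-210-3p (MIR210HG): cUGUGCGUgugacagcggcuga
MIR222HG, whose difference between the lines did not pass, holds a pair of microRNAs with 1 seed that no other mature sequence of the table carries.
hsa-miR-221-3p (MIR222HG): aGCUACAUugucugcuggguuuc
hsa-miR-222-3p (MIR222HG): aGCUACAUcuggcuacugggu
Over the 7 partner lists named so far, the median log2 fold change in both lines together lay between -0.31 and 0.15, against 0.01 over all genes.

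A last list held 16 genes written down as neighbours of the members, of which the annotation places 10 beside or over a member. Of its 13 tested genes, 0 passed after knockdown, with CLMN (log2 0.71, edgeR adjusted p = 0.304) and C5orf22 (-0.53, adjusted p = 0.368) first by p in both lines together. Between the lines, CLMN (2.17), COL8A2 (4.76), POLH (0.60) and ADPRHL2 (0.56) were higher in T24, and PTK2 (-1.87), CHRAC1 (-1.21) and RANBP1 (-0.38) were lower. These are 4 higher and 3 lower of 13, against 40.2% of all genes in either direction. COL8A2 was near the floor, at 0.74 to 2.51 CPM in T24 and 0 to 0.13 CPM in UMUC3. COL8A2 and ADPRHL2 are not among the 10 placed beside or over a member. POLH was higher in T24 and XPO5, which starts 75 bases away, was lower. CHRAC1 and PTK2, on either side of AGO2, were lower in T24, as was AGO2.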

How the data were processed

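The authors deposited raw read counts per transcript, 136953 rows with no normalisation, for 6 libraries. HISAT2 2.1.0, StringTie 1.3.3b, FastQC 0.11.5 and hg38 are named, with no role given, in the submitters' processing notes. Strandedness and RNA selection are not given in the sources used here. The 15038 rows without a gene, 14.86% to 16.1% of a library, were left out, and the rest were summed to 30717 genes. Of the rows with a gene, 121869 matched GENCODE release 29, which gave the coordinates and transcript types.

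A gene was tested if 2 or more libraries had 10 or more counts and the sum was 30 or more, which left 20721 genes. These were fitted with edgeR 4.0.16 in R 4.3.3 (TMM, robust quasi-likelihood F test), with Benjamini-Hochberg adjustment over all of them at 0.05. Line and knockdown were terms of 1 fit (3 residual degrees of freedom), and 4 groups gave each line and the difference (2 residual degrees of freedom). The current quasi-likelihood estimate follows the earlier processing of these data and was chosen after both estimates had been fitted. The older one called no member after knockdown. The scripts were tested on simulated data. DESeq2 1.42.0, limma 3.58.1 voom and other settings served as alternatives.

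The members and lists were chosen with earlier results of these data known. All 10 members are given in every library. Of each list, the text names the genes that passed, the 2 with the smallest p in both lines together, and host transcripts with a mean of at least 5 CPM. A gene that meets this rule is not reported here. For AGO2 it names the 3 genes with the highest Pearson r of log2(CPM + 0.1). The chi-square per degree of freedom between the knockdown libraries of a line was 119.6 in T24 and 116.5 in UMUC3, so no pair agreed within sampling noise. CPM here is scaled to named-gene counts, and TPM divides the counts by the GENCODE length of each transcript. Such counts cover sampling error only.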

Additional observations from a re-analysis of the deposited data

How the results depend on the processing

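The DESeq2 Wald test called 1 member in both lines together, 3 in T24, 4 in UMUC3 and 3 in the difference between lines. Composition-stable genes alone, an alternative added after seeing the data, gave 1 in T24, 2 in UMUC3 and 1 in the difference, against 4.03%, 12.4% and 3.35% of the 4593 stable genes. The UMUC3 count was 0 with limma voom, with leading transcripts only, with UMUC3 libraries alone, with a block for the title or the column-name numbers, and with the older quasi-likelihood estimate, added after seeing the data. For AGO2 in UMUC3 the adjusted p was 0.204 with the block by title number and 0.259 by column-name number, and no paired result passed in a knockdown comparison. The correlation of same-numbered deviations over all tested genes was -0.0014 for title numbers. The value for column-name numbers, 0.0014, is the same one with its sign changed, because the swap in T24 only reverses that deviation. It therefore cannot tell which numbering is right, and whether same-numbered libraries share a reagent was not tested. The block took AGO2 out of the line comparison, leaving 2 members, and called 6847 genes there. Control libraries alone gave 6 members between lines (24.4% of all genes) and knockdown libraries alone gave 5 (34.6%). Leaving out 1 library gave 0 to 1 members in both lines together, 0 in T24, 0 in UMUC3, 0 in the difference and 2 to 5 between lines.

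Of 755 alternative values of member fold changes, 679 kept direction and side of the threshold and 35 reversed, 2 of them from a size over 0.5. In both lines together, TNRC6A went to 0.056 with voom and, on leading transcripts, to 0.10, with DGCR8 at 0.27 and TNRC6B at 0.054. Leading transcripts also put DGCR8 at 0.46 in T24, 0.095 in UMUC3 and -0.37 in the difference, and TNRC6B at -0.0091 between lines. Control libraries alone put DGCR8 at 0.025 and TNRC6B at -0.14 between lines, and knockdown libraries alone put TNRC6A at 0.44.

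With 1 library left out, values in both lines together ranged from -0.52 to 0.37 for AGO3, -0.56 to 1.15 for DICER1, -0.25 to 0.93 for DROSHA, -0.22 to 0.18 for XPO5, -1.01 to 1.21 for TNRC6A and -0.29 to 0.22 for TNRC6B, the ends coming from the control left out. DGCR8 ranged from -0.51 to 0.038 in T24, -0.23 to 0.16 in UMUC3, -0.068 to 0.48 in the difference and -0.24 to 0.071 between lines. TNRC6B ranged from -0.82 to 0.10 in UMUC3 and -0.073 to 0.44 between lines. AGO1 ranged from -1.35 to 0.49 in the difference and -0.18 to 0.81 between lines, and TNRC6A from -0.58 to 0.45 between lines. The cause of these moves was not tested. Counts of all genes called also moved, for UMUC3 from 134 to 13 with the older estimate, 224 without the filter and 1715 by DESeq2, and for T24 from 28 to 2, 43 and 980. In both lines together 3 became 2, 8 and 981, and for the difference 12 became 5, 35 and 1120. The members had 572 to 37249 counts in a library, and the number of libraries, 1 to 2 a group, limits the precision.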

Other observations

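AGO1 was the only one of the 10 genes in which the libraries titled with number 2 were lower than those with number 1 by at least 1 on the log2 scale in both lines, by -1.56 in T24 and -1.34 in UMUC3 with 0.5 CPM added. Of 11139 genes with a mean of at least 5 CPM, 73 were lower by that much in both lines, 72 were higher in both, and 113 were higher in 1 line and lower in the other. With the numbers of the column names, which are swapped in T24, AGO1 would count among the last of these. Among the other members the nearest was DGCR8, at -0.54 in T24 and -0.38 in UMUC3. This pattern was noticed after the values had been seen, and whether it belongs to an siRNA sequence was not tested.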
